A study of Rattus norvegicus with 48 samples.

Results

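Circulating miRNAs were compared between the sera of placebo-treated Zucker diabetic fatty (ZDF) rats and placebo-treated WT rats, which asks which extracellular miRNAs differ in level between diabetic and non-diabetic animals when no drug is given. The libraries were chosen by their labels alone, as serum from the placebo arm, and comprised 10 of the 48 libraries of the series and 10 of its 32 serum libraries (ZDF n = 5, WT n = 5). The series holds small RNA libraries made from serum and from ulna bone of ZDF and WT rats that were given placebo, PTH, anti-sclerostin or, in ZDF rats only, insulin for 12 weeks, to relate diabetic bone disease and its treatment to miRNAs.

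Both copies of the leptin receptor gene are defective in ZDF rats (fa/fa), which overeat, grow obese and turn diabetic without further intervention. WT stands for Zucker lean rats (+/+). All animals of the study were male, were fed a diet rich in fat and carbohydrate and had received a surgical subcritical defect of the femur before treatment, so that every serum came from a rat with a healing bone. Placebo was the injected vehicle. The difference between the groups is therefore the leptin receptor defect, obesity and diabetes together, in a single inbred model, and these cannot be told apart. The mutation cannot be seen in miRNA reads, and the genotype rests on the labels.

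MiRNAs are short RNAs cut from a hairpin precursor, of which either arm, 5p or 3p, can be loaded into the silencing complex and guide it to mRNAs that pair with the seed, the bases 2 to 8 of the miRNA. Cells release miRNAs into blood within vesicles, lipoproteins or protein complexes, and dying cells leak them. Some miRNAs are made in few cell types, such as miR-122 in hepatocytes, which is why they are measured in serum as signs of injury or of altered secretion. In a serum sample, a change in the number of releasing cells and a change in the amount released per cell cannot be told apart.

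Of 164 miRNAs tested, 10 differed between ZDF and WT serum at a false discovery rate (FDR) under 0.2, which is 6.1% of those tested (edgeR's quasi-likelihood test with Benjamini-Hochberg adjustment). Higher in ZDF were 7 (4.27%), namely the liver miRNAs miR-802-5p, miR-122-3p and miR-122-5p, the endocrine miR-375-3p, the intestinal and hepatic miR-192-5p, and miR-31a-5p and miR-145-5p. Lower in ZDF were 3 (1.83%), namely miR-27a-5p, miR-199a-3p and miR-100-5p. Levels are CPM, the counts scaled to the miRNA reads of a library and by TMM, and are shares of the miRNAs of a serum and not amounts per volume.

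The mature sequences of the called miRNAs are shown because the arm that changed and its seed define what was measured. RefSeq (GRCr8) held 9 of the 10, and miR-802-5p is given by name. The files themselves were mapped by the authors to an older build, Rnor 6.0, so the positions here are those of RefSeq. Capitals mark the seed.
rno-miR-122-5p: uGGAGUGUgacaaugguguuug
rno-miR-122-3p: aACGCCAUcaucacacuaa
rno-miR-192-5p: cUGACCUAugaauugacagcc
rno-miR-375-3p: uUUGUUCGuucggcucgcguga
rno-miR-31a-5p: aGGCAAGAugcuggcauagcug
rno-miR-145-5p: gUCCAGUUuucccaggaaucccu
rno-miR-27a-5p: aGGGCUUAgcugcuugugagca
rno-miR-199a-3p: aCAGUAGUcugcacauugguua
rno-miR-100-5p: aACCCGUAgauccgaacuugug
The 9 sequences carried 9 different seeds, so no seed family was represented more than 1 time among them. The arms of miR-122 lie at chr18:61028831-61028852 (5p) and chr18:61028867-61028885 (3p), on the + strand of 1 hairpin. MiR-192-5p lies at chr1:212994232-212994252 (+), next to the gene of miR-194. MiR-375-3p lies at chr9:83906591-83906612 (-) and miR-31a-5p at chr5:108714906-108714927 (-), the latter within the span of an annotated long non-coding RNA. MiR-145-5p lies at chr18:57370033-57370055 (-) within the long non-coding RNA gene Carmn, which also holds miR-143. MiR-27a-5p lies at chr19:40859655-40859676 (-), between the genes of miR-23a and miR-24-2. MiR-199a-3p lies at chr13:77116294-77116315 (+) within the span of the protein-coding gene Dnm3, which also holds miR-214, and miR-100-5p at chr8:50798307-50798328 (+) near let-7a-2. More than 1 locus of a genome can give the mature miR-199a-3p, and the reads do not tell such loci apart.

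The 3 liver arms, both arms of miR-122 among them, were all called higher, though not every ZDF rat had a high level of each. MiR-802-5p, a miRNA of liver and pancreas known for its link to obesity and impaired insulin action, was at 197, 99.9, 104, 177 and 45.8 CPM in WT rats 1 to 5. In ZDF rats 1 to 5 it was at 994, 219, 842, 787 and 1274 CPM. The groups did not overlap, and ZDF rat 2 was the lowest of its group. The ratio of the group means was 6.60, with a log2 fold change of 2.71 ± 0.48 (SE) at FDR = 0.00475 in edgeR, the largest rise and the smallest FDR of the 164 tested. The exact permutation test, two-sided on log2(CPM + 1), gave p = 0.00794, the smallest value that 5 rats against 5 allow. These levels rest on 6 to 36 reads per WT library and 18 to 103 per ZDF library. The other arm, miR-802-3p, had 0 or 1 read in WT and 1 to 4 reads in ZDF libraries, too few for a test.

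MiR-122 is the most abundant miRNA of hepatocytes. MiR-122-5p was at 219, 344, 201, 192 and 107 CPM in the WT rats and at 860, 60.9, 801, 1173 and 1186 CPM in the ZDF rats. Of the ZDF rats, 4 lay above all WT rats, while ZDF rat 2, with 5 reads, lay below all of them. In edgeR it rose by 1.94 ± 0.54 (SE) on the log2 scale at FDR = 0.0519, and the exact permutation test, in which ZDF rat 2 weighs more, gave p = 0.111. The partner arm miR-122-3p was at 104, 133, 96.3, 103 and 76.3 CPM in WT and at 382, 146, 515, 290 and 867 CPM in ZDF rats. Here the groups did not overlap, with ZDF rat 2 again the lowest of its group. This arm rose by 2.09 ± 0.45 (SE) on the log2 scale at FDR = 0.0197 in edgeR, with an exact permutation p = 0.00794. ZDF rat 2 was thus the lowest ZDF rat for all 3 liver arms, whereas miR-192-5p and miR-375-3p were at 11004 and 4431 CPM in the same serum, in the middle or upper part of their ZDF range. Leaving out this rat, the log2 fold change of miR-122-5p was 2.27.

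MiR-192-5p, a miRNA of intestinal, renal and hepatic epithelium, was the most abundant of the called miRNAs. It was at 6021, 4228, 1124, 4292 and 1114 CPM in WT rats and at 14109, 11004, 5100, 19733 and 5981 CPM in ZDF rats. The groups overlapped at their edges, where ZDF rats 3 and 5 lay below WT rat 1. The log2 fold change was 1.74 ± 0.49 (SE) at FDR = 0.0519 in edgeR, with an exact permutation p = 0.0238. Of its hairpin's other arm, miR-192-3p, WT libraries held at most 2 reads and ZDF libraries 2 to 9. MiR-194-5p, which is encoded beside miR-192, had at most 3 reads in any library and was not tested.

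MiR-375-3p, a miRNA of pancreatic islets and other endocrine cells that acts in beta cell growth and insulin secretion, was at 1870, 388, 201, 841 and 175 CPM in WT rats. It was at 5793, 4431, 1978, 3326 and 1734 CPM in ZDF rats. Only ZDF rat 5 lay below the highest WT rat. The ratio of the group means was 4.97 and the log2 fold change 2.30 ± 0.58 (SE) at FDR = 0.0262 in edgeR, with an exact permutation p = 0.0159. Without WT rat 1, the highest of its group, the log2 fold change of miR-375-3p was 3.18. No read of the other arm, miR-375-5p, was counted in these libraries. The lowest WT levels of miR-375-3p and of miR-192-5p were in WT rats 3 and 5, which stood apart in the erythrocyte miRNA miR-451-5p as described further on.

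MiR-31a-5p, found in epithelia and in cells of the mesenchymal lineage and studied as a brake on osteoblast differentiation, was at 104, 66.6, 96.3, 88.5 and 144.9 CPM in WT rats. It was at 268, 170, 212, 524 and 478 CPM in ZDF rats, without overlap. Its log2 fold change was 1.68 ± 0.42 (SE) at FDR = 0.0262 in edgeR, with an exact permutation p = 0.00794. WT libraries held 6 to 19 of its reads and ZDF libraries 14 to 38.

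MiR-145-5p, a miRNA of smooth muscle and other contractile mesenchymal cells, was at 5048, 3585, 3283, 3274 and 2868 CPM in WT rats. It was at 10152, 5514, 8001, 3202 and 11078 CPM in ZDF rats. ZDF rat 4 lay within the WT range and the other ZDF rats above it. Its rise was the smallest of the 7, with a log2 fold change of 1.07 ± 0.34 (SE), with FDR = 0.110 in edgeR and an exact permutation p = 0.0476. Its hairpin partner miR-145-3p had a log2 fold change of 0.83 at FDR = 0.688 and miR-143-3p, from the same primary transcript, of 0.83 at FDR = 0.486 in edgeR, and neither passed. The call of miR-145-5p was lost when ZDF rat 1, ZDF rat 5 or WT rat 5 was left out, with FDR up to 0.254 in edgeR.

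**Figure D1:**
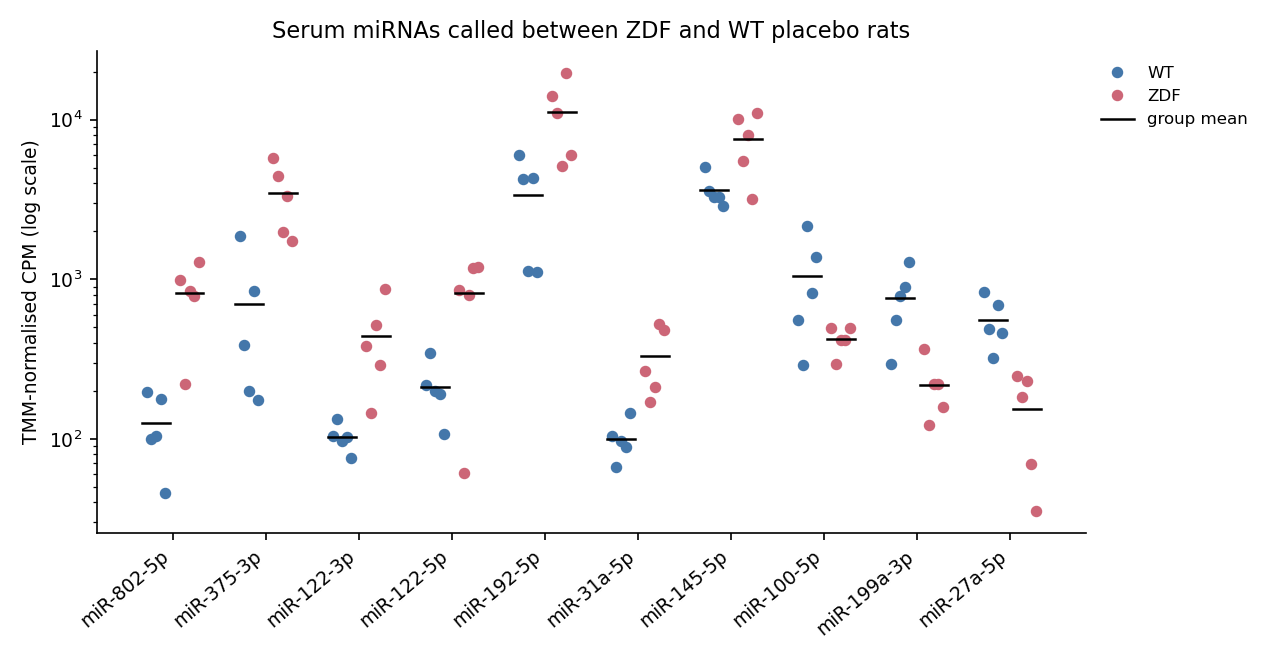
TMM-normalised CPM (log axis) of the 10 called miRNAs in each placebo serum, ordered by log2 fold change; each point is 1 rat (5 WT, 5 ZDF) and each bar the group mean. For miR-802-5p, miR-122-3p, miR-31a-5p and miR-27a-5p the groups do not overlap, and the low ZDF point of miR-122-5p, at 60.9 CPM, is rat 2.

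Among the miRNAs that were lower in ZDF serum, miR-27a-5p is the passenger arm of a hairpin whose other arm, miR-27a-3p, is studied in adipocyte and osteoblast differentiation. MiR-27a-5p was at 831, 488, 321, 693 and 458 CPM in WT rats and at 249, 183, 229, 69.0 and 35.4 CPM in ZDF rats, without overlap. The log2 fold change was -1.84 ± 0.46 (SE) at FDR = 0.0262 in edgeR, with an exact permutation p = 0.00794. MiR-27a-3p, which has another seed (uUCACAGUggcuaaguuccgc), had a mean level of 8538 CPM over the 10 sera, against 356 CPM for miR-27a-5p, and a log2 fold change of -0.40 at FDR = 0.589. The neighbours in the cluster, miR-23a-3p (0.12, FDR = 0.925), miR-24-3p (-0.54, FDR = 0.486) and miR-24-2-5p (-0.18, FDR = 0.881), did not pass either in edgeR. The difference between the arms was not tested.

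MiR-199a-3p, a miRNA of osteoblasts, fibroblasts and other mesenchymal cells, was at 295, 555, 787, 900 and 1282 CPM in WT rats and at 363, 122, 221, 221 and 159 CPM in ZDF rats. The ranges overlapped only through WT rat 1 and ZDF rat 1. On the log2 scale the change was -1.82 ± 0.43 (SE) at FDR = 0.0262 in edgeR, with an exact permutation p = 0.0159. The other arm, miR-199a-5p, had a log2 fold change of -0.74 at FDR = 0.486, and the neighbouring miR-214-3p of -0.68 at FDR = 0.545 in edgeR.

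MiR-100-5p, of the miR-99/100 family, was at 552, 289, 2167, 826 and 1381 CPM in WT rats and at 497, 292, 417, 414 and 496 CPM in ZDF rats. The ZDF values lay close together and within the WT range, and the highest values were those of WT rats 3 and 5. The log2 fold change was -1.31 ± 0.45 (SE) at FDR = 0.161 in edgeR, and the exact permutation test gave p = 0.103. Leaving out single libraries ended this call in 8 of 10 cases, and without WT rat 3 the log2 fold change was -0.79. MiR-99b-5p, which has the same seed (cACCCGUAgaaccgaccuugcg), had a log2 fold change of -0.68 at FDR = 0.453 in edgeR and did not pass.

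Of the 164 miRNAs tested, 4 (2.44%) had groups without overlap in CPM, and these were the called miR-802-5p, miR-122-3p, miR-31a-5p and miR-27a-5p. The log2 fold change was positive for 66 and negative for 98, with a median of -0.09. The most abundant serum miRNAs, which were miR-191a-5p, miR-486, miR-16-5p, miR-92a-3p, miR-451-5p, miR-21-5p, miR-25-3p, miR-19b-3p, miR-29a-3p and miR-93-5p, held 53.3% to 63.5% of the miRNA reads of a library, and none of them was called. The mean levels of the called miRNAs over the 10 sera ran from 215 CPM for miR-31a-5p to 7271 CPM for miR-192-5p.

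**Figure D2:**
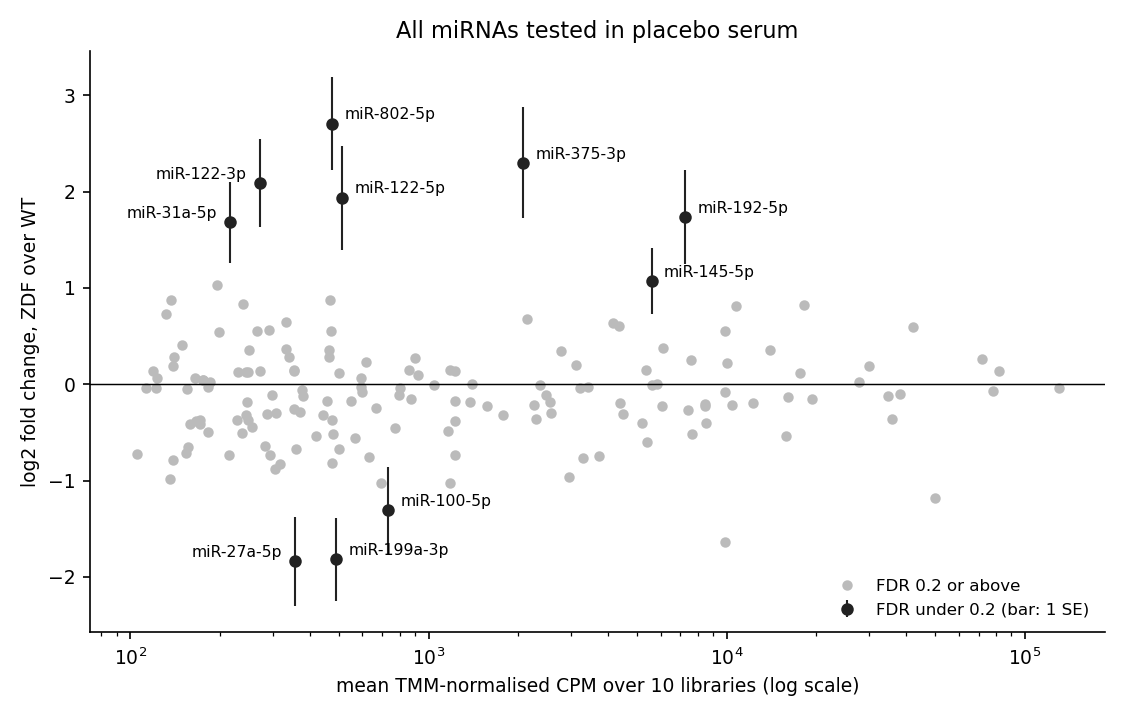
Mean TMM-normalised CPM over the 10 placebo sera (log axis) against the log2 fold change of ZDF over WT for the 164 miRNAs tested; black points are the 10 with FDR under 0.2 and their bars 1 SE. All 7 rises among them exceed 1, and miR-451-5p, among the most abundant, lies at -1.18 without being called.

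The nearest miRNAs that did not pass were miR-148a-3p (log2 fold change -0.74, FDR = 0.321), miR-320-3p (0.82, FDR = 0.321), miR-125b-5p (-1.03, FDR = 0.379), miR-140-5p (-0.88, FDR = 0.379) and the striated muscle miR-133a-3p (-1.64, FDR = 0.384), all in edgeR. MiR-320-3p, which is cut from its precursor without the nuclear Microprocessor, was at 5316 to 13656 CPM in WT rats and at 8830 to 17455 CPM in ZDF rats, with an exact permutation p = 0.0397. MiR-140-5p, a miRNA of cartilage, was at 280 to 587 CPM in WT and at 88.5 to 286 CPM in ZDF rats, so that only the edges overlapped, with an exact permutation p = 0.0159. MiR-218a-5p, studied in osteoblast differentiation, did not pass filterByExpr and was not in the fit. It was at 131, 55.5, 1019, 236 and 221 CPM in WT rats and at 57.4, 12.2, 89.9, 27.6 and 53.1 CPM in ZDF rats, with 5 to 127 and 1 to 11 reads, and its exact permutation p was 0.0238. Of the 12 miRNAs that the study lists for this comparison, 11 were tested and 10 passed here, which is no independent evidence because that list was chosen on these same sera.

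Grouped by the cells that make them, the 10 called miRNAs, 6.1% of all tested, were spread over 6 lists beside the list of the study, all chosen with earlier results known. Of the liver list, all 3 tested members were called higher, with a median log2 fold change of 2.09 beside -0.09 over all miRNAs tested. Its summed level was 229 to 577 CPM in WT rats and 463 to 3362 CPM in ZDF rats, where only ZDF rat 2 lay within the WT range. Of the list of miR-192, miR-194 and miR-215, the only tested member, miR-192-5p, was called higher, and the summed level of 1124 to 6038 CPM in WT rats overlapped the 5149 to 19885 CPM of ZDF rats. Of the pancreas list, 2 of 12 members were tested. MiR-375-3p was called higher, while miR-7a-1-3p had a log2 fold change of -0.04 at FDR = 0.989 in edgeR. The acinar miR-217-5p, which was not tested in edgeR, went the other way. Its mean was 41.1 CPM in WT rats (0 to 18 reads) and 5.19 CPM in ZDF rats (0 to 1 read), with an exact permutation p = 0.0794.

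In the list of mesenchymal miRNAs, 7 were tested, of which miR-199a-3p and miR-100-5p were called lower and miR-31a-5p higher, with a median log2 fold change of -0.96. Its most abundant member, miR-99a-5p, had a log2 fold change of -0.96 at FDR = 0.453, and was at 9600 and 4959 CPM in WT rats 3 and 5 against 843 to 3250 CPM in the other rats. Of the smooth muscle list, 1 of 3 tested members, miR-145-5p, was called, and all 3 log2 fold changes were positive. Of the list of the miR-23, miR-27 and miR-24 clusters, 1 of 7 tested members, miR-27a-5p, was called.

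No member of the other lists was called. Of the erythrocyte list, 4 were tested, among them miR-486 (log2 fold change 0.14, FDR = 0.925), miR-451-5p (-1.18, FDR = 0.384) and miR-144-3p (-0.40, FDR = 0.796) in edgeR. Of leukocyte and platelet miRNAs 9 were tested, the most abundant being miR-191a-5p (-0.04), miR-223-3p (-0.15) and miR-150-5p (-0.23). Of endothelial miRNAs 4 were tested, led by miR-126a-5p (-0.22), miR-126a-3p (-0.19) and miR-221-3p (-0.21). Striated muscle gave 2 tested members, miR-133a-3p and miR-1b (-0.79), and its summed level spread from 1652 to 40200 CPM over WT rats alone. The 4 tested members of the epithelial miR-200 list, led by miR-203a-3p (0.68), miR-200a-3p (0.07) and miR-429 (0.55), the single neural member miR-128-3p (-0.13) and 6 let-7 members, led by let-7i-5p (-0.20), let-7f-5p (0.13) and let-7c-5p (-0.32), were not called. Members of the let-7 family, and miR-1b and its relatives, differ by few bases and can share reads. The 5 members of the list on insulin sensitivity were not called, with log2 fold changes of -0.13 for miR-29a-3p, 0.22 for miR-103-3p and -0.08 for miR-29c-3p. The 7 serum reference miRNAs, led by miR-191a-5p, miR-16-5p (-0.07) and miR-93-5p (0.19), had log2 fold changes between -0.07 and 0.22.

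**Figure D3:**
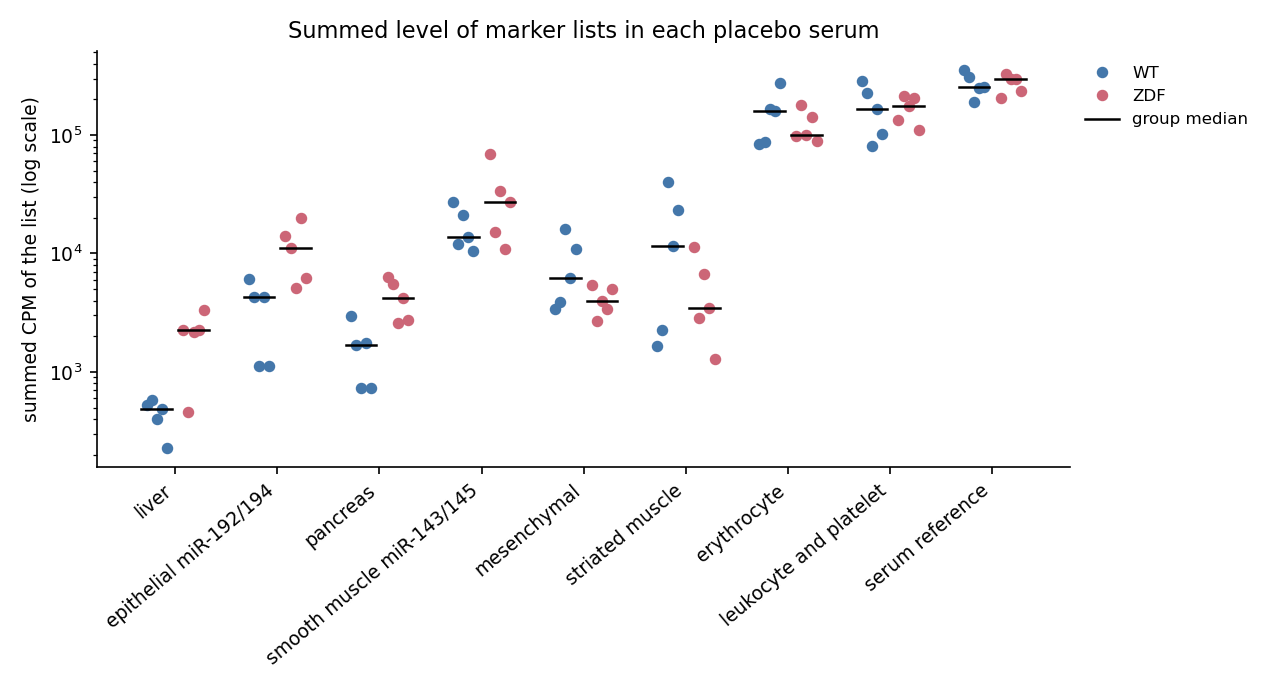
Summed CPM (log axis) of 9 lists of marker miRNAs in each placebo serum, with points for single rats (5 WT, 5 ZDF) and bars for group medians. The liver sums of 4 ZDF rats lie above the highest WT sum of 577 CPM, and the erythrocyte, leukocyte and reference sums overlap between the groups.

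The libraries differed in measures that bear on these levels. They held 64957 to 205664 miRNA reads in WT rats (median 119232) and 48637 to 124422 in ZDF rats (median 76854), with an exact permutation p = 0.151. The share of all reads that was counted on miRNAs was 2.04% ± 0.519 (SD, n = 5) in WT and 1.16% ± 0.355 (SD, n = 5) in ZDF rats. The groups did not overlap, with WT rats at 1.58% and above and ZDF rats at 1.57% and below, and the exact permutation p was 0.00794, or 0.0556 adjusted over the 7 library measures compared. MiRNA reads per read of the synthetic RNAs added at extraction were 0.405 ± 0.280 (SD, n = 5) in WT and 0.210 ± 0.117 (SD, n = 5) in ZDF rats, a log2 difference of -0.87 with an exact permutation p = 0.119 (0.208 adjusted). When libraries were scaled to these synthetic RNAs in place of TMM, the median of the log2 fold changes moved from -0.09 to -1.03 and 37 miRNAs were called, 2 higher and 35 lower, against 7 higher and 3 lower with TMM. The 2 that were still called higher on that scale were miR-802-5p (log2 fold change 1.99, FDR = 0.126) and miR-375-3p (1.79, FDR = 0.146), and the 3 lower calls were kept. The other 5 kept a positive log2 fold change and were no longer called, namely miR-122-3p (1.24), miR-192-5p (1.15), miR-122-5p (1.09), miR-31a-5p (0.71) and miR-145-5p (0.14). The authors added the synthetic RNAs in a fixed amount to a fixed volume of each serum. Scaling to them therefore refers to the volume of serum, whereas TMM gives shares of the miRNAs. How evenly the synthetic RNAs were added and recovered was not tested.

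Hemolysis is read from the ratio of the erythrocyte miRNA miR-451-5p to miR-23a-3p, which on the log2 scale was 1.495 ± 1.70 (SD, n = 5) in WT and 0.68 ± 0.74 (SD, n = 5) in ZDF rats (exact permutation p = 0.333). It was 3.24 and 3.297 in WT rats 3 and 5 and at most 1.41 in the other rats. MiR-451-5p itself was at 94463 and 181319 CPM in these sera against 14838 to 54274 CPM elsewhere, and miR-133a-3p at 38426 and 21536 CPM against at most 11016 CPM. The summed erythrocyte list was highest in WT rat 5 (274305 CPM), but was lower in WT rat 3 (166563 CPM) than in ZDF rat 2 (180613 CPM). MiR-144-3p was likewise highest in WT rat 5 (9635 CPM), but was at 5715 CPM in WT rat 3, below the 8126 CPM of WT rat 4. WT rats 3 and 5 were thus both set apart by miR-451-5p, while the summed erythrocyte list and miR-144-3p were highest in WT rat 5 alone. Without both rats, a choice made after seeing the data, 10 miRNAs were again called, and 7 of them were shared with the full comparison. Lost were miR-122-5p (FDR = 0.218), miR-145-5p (FDR = 0.258) and miR-100-5p (log2 fold change -0.34, FDR = 0.809), and newly called were miR-193b-3p (1.41, FDR = 0.0822), miR-210-3p (-1.05, FDR = 0.123) and miR-1247-5p (1.98, FDR = 0.174), all in edgeR and named after their values were seen. The part of blood cells in these levels was not tested further.

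**Figure D4:**
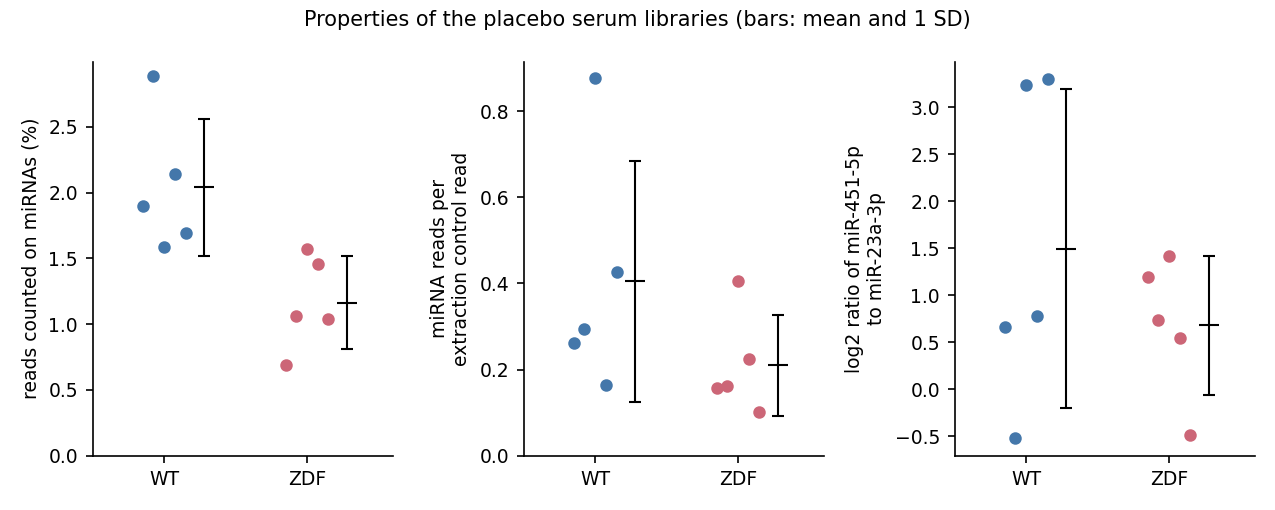
Share of reads counted on miRNAs (%), miRNA reads per extraction control read, and the log2 ratio of the erythrocyte miR-451-5p over miR-23a-3p in the placebo sera, with 1 point per rat and bars for the mean and 1 SD of each group. The miRNA shares of WT and ZDF rats do not overlap, and WT rats 3 and 5 are the points above 3 in the third panel.

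The genotype difference of the 10 miRNAs was then read in rats that had not been used to call them, which were ZDF and WT rats given PTH (n = 5 each) or anti-sclerostin (n = 4 each). After filterByExpr, no miRNA was called there by edgeR among 158 (0%) under PTH or among 161 (0%) under anti-sclerostin. At an unadjusted p under 0.05 in edgeR there were 5 of 158 and 11 of 161, where a share of about 0.05 is expected if no miRNA differs. DESeq2, given the same 158 and 161, called 0 and 6. With every miRNA that had a read in the fit and independent filtering afterwards, edgeR called 1 and 12. More miRNAs entered that fit, so these counts cannot be set directly against those among 158 and 161. In an earlier analysis of these data, fits shared by all miRNAs with a read gave calls in nearly every run on simulated null data. The calls of this wider setting are therefore no replication. The fit after filterByExpr, simulated for the placebo sera, also gave a call in 4 of 10 null runs. The 12 under anti-sclerostin included 5 of the 10, all in the same direction as under placebo, which were miR-122-5p (log2 fold change 2.40, FDR = 0.00323), miR-122-3p (2.32, FDR = 0.0127), miR-31a-5p (2.07, FDR = 0.0764), miR-375-3p (1.51, FDR = 0.0764) and miR-192-5p (1.18, FDR = 0.1999). MiR-217-5p of the pancreas list was also among the 12, lower in ZDF rats (log2 fold change -3.88, FDR = 0.00335 in edgeR). In the narrower test that was also used for placebo, 8 of the 10 miRNAs under PTH had the same sign as under placebo, the exceptions being miR-27a-5p (0.48) and miR-199a-3p (0.23). Under anti-sclerostin, 8 were tested and 7 had the same sign, the exception being miR-145-5p (-0.11), while miR-122-3p and miR-199a-3p did not pass filterByExpr in these sera. The share of all tested miRNAs that kept their sign was not counted, so these sign counts have no background beside them. The PTH count also includes both arms of the miR-122 hairpin.

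MiR-375-3p was the closest to a call in both. Under PTH its log2 fold change was 1.35 ± 0.53 (SE) at FDR = 0.896 in edgeR. Under anti-sclerostin it was 1.68 ± 0.41 (SE) at FDR = 0.270, with WT rats at 549 to 1503 CPM and ZDF rats at 2128 to 4292 CPM, without overlap, and an exact permutation p = 0.0286, the smallest that 4 rats against 4 allow. DESeq2 called it there at an adjusted p = 0.0268, together with miR-122-5p (adjusted p = 0.145). MiR-122-5p had log2 fold changes of 0.92 ± 0.68 (SE) under PTH and 2.56 ± 0.79 (SE) under anti-sclerostin, and miR-192-5p of 1.01 ± 0.57 (SE) and 1.34 ± 0.58 (SE). For miR-802-5p the values were 0.54 ± 0.79 (SE) and 1.57 ± 0.73 (SE), and for miR-31a-5p 0.43 ± 0.56 (SE) and 2.24 ± 0.82 (SE). For these miRNAs all log2 fold changes were positive, and the spread between rats was large.

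Whether the genotype difference itself differed between treatments was tested by an interaction term in edgeR. None of 182 miRNAs (0%) passed for PTH against placebo and none of 189 (0%) for anti-sclerostin against placebo. At an unadjusted p under 0.05 there were 8 and 4, where a share of about 0.05 is expected if no miRNA differs. Among the 10, the interaction terms furthest from 0 relative to their error were those for PTH of miR-27a-5p (log2 difference of the fold changes 2.31 ± 0.88, SE), miR-122-3p (-1.92 ± 0.84), miR-802-5p (-2.20 ± 0.98) and miR-199a-3p (1.97 ± 0.91), all at an adjusted p of 0.922 in edgeR. When every miRNA with a read entered the fit and independent filtering followed, the PTH interaction was called for 6 miRNAs, among them miR-27a-5p (2.23, FDR = 0.161) and miR-802-5p (-2.25, FDR = 0.161), so that the call for these depended on the filter. The limit of that wider setting, calls on simulated null data, holds here too, and more miRNAs entered that fit than the 182 above.

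**Figure D5:**
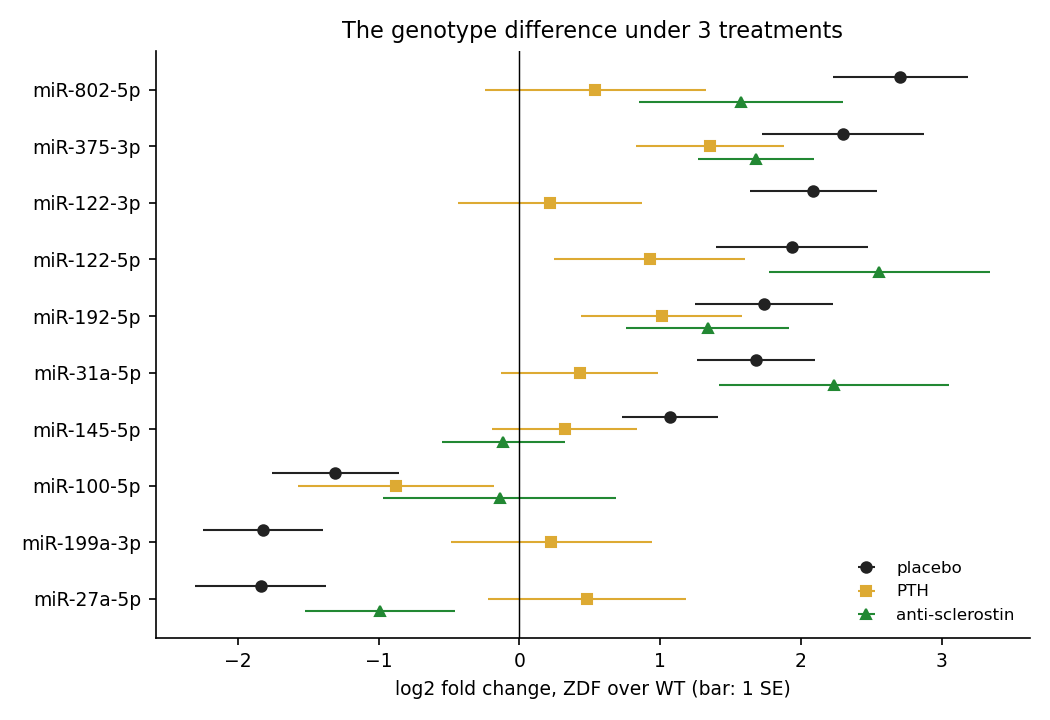
Log2 fold change of ZDF over WT serum (points) with 1 SE (bars) for the 10 miRNAs called under placebo, in placebo (5 against 5 rats), PTH (5 against 5) and anti-sclerostin (4 against 4) sera. The points of miR-802-5p, miR-375-3p, miR-122-5p, miR-192-5p and miR-31a-5p are above 0 under all 3 treatments, and those of miR-100-5p below 0. MiR-122-3p and miR-199a-3p have no value under anti-sclerostin because they were not tested there.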

How the data were processed

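Serum small RNA libraries were made and sequenced by the authors. Adapters were removed with cutadapt and reads under 17 nt were discarded. The authors aligned what remained using bowtie and miRDeep2, to Rnor 6.0 at first and later to miRBase, and counted reads per mature miRNA. The deposited counts are raw. The deposited RPM values, scaled by the authors to the library, gave the library totals. Each library lists 763 miRNAs, of which 471 had a read in the 10 placebo sera; 3 extraction controls and 7 other controls were kept out of library sizes. The same-group libraries all differed by more than counting noise.

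Counts were tested in R 4.3.3 with edgeR 4.0.16 (quasi-likelihood, legacy = TRUE, robust = FALSE, TMM), on the placebo sera alone, after filterByExpr, which kept 164 miRNAs with at least 99.0% of the miRNA reads of each library. Calls are Benjamini-Hochberg FDR < 0.2. The SE is the log2 fold change over the root of F. Single levels and library measures were also compared by two-sided exact permutation, with a pseudocount of 1 for CPM. The PTH and anti-sclerostin sera were fitted in the same way. The placebo fit was tested on simulated counts. Without any true difference, 4 of 10 runs gave a call at FDR < 0.2. With true log2 changes of 2 in size, 99.5% of the changed miRNAs tested were found and 16.0% of calls were false.

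MiRNAs were named if called, if the other arm or seed relative of a called one, if next in p, if among the 3 most abundant of a marker list, if among the 10 most abundant of all, or if on the study's list. Members and lists were chosen with earlier results of these data known. Alternatives were other filters, scalings (RLE, read totals, extraction controls), DESeq2 1.42.0, other variance settings, all sera in 1 fit, a covariate for miR-451-5p to miR-23a-3p, and single libraries left out. Near-identical miRNAs can share reads. P-values set the difference between the groups against the spread between these rats.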

Additional observations from a re-analysis of the deposited data

Results flagged for a closer look

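Within the groups of 4 or 5 rats, 74 sets of values of the called miRNAs and the library measures were examined for 1 value far from the rest by Dixon's test, which flags about 1 in 20 groups by chance, and 5 values stood apart. In placebo serum, ZDF rat 2 was low for miR-802-5p, with 219 CPM against 787 in the nearest rat, and for miR-122-5p, with 60.9 CPM against 801. Under PTH, WT rat 3 had no read of miR-802-5p (0 CPM, nearest 234) and ZDF rat 3 was low for miR-145-5p (1075 CPM, nearest 5350). Under anti-sclerostin, WT rat 4 had no read of miR-31a-5p (0 CPM, nearest 75.7). The cause of these values was not tested.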

How the results depend on the processing

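The 10 calls became 37 (12 higher, 25 lower) when every miRNA with a read entered the fit and independent filtering followed, 33 (11 higher, 22 lower) without that filtering, 37 with extraction control scaling, of which 5 were shared, and 6 at FDR < 0.05; the other settings gave 9 to 12. The fits with every miRNA that had a read started from 471 miRNAs in place of 164, so their counts cannot be set directly against the 6.1% of the main call. Without single libraries the count was 8 to 17, the highest without WT rat 1. Of 110 values of the called miRNAs under these settings, 100 kept their side of the threshold, 10 lost it and 0 changed sign; all sera in 1 fit lost miR-199a-3p, miR-145-5p and miR-100-5p, and read-total scaling and the covariate lost miR-100-5p. Without single libraries, 8 of the called miRNAs stayed under FDR 0.2 throughout. With independent filtering the PTH sera gave 1 call, the anti-sclerostin sera 12 and the interactions 6 and 3. All counts with every miRNA that had a read in the fit carry the limit seen on simulated null data. DESeq2 gave 6 for anti-sclerostin. Without single libraries, the PTH and anti-sclerostin counts stayed at 0; the interactions were not refitted in this way. The log2 differences of the library measures ranged from -0.10 (without WT rat 3) to 0.53 for extraction control reads, from -1.15 to -0.53 for miRNA reads per control read, from -0.27 to -0.15 for miRNAs with over 10 reads and from -0.18 to -0.12 for miRNAs detected. No paired analysis was possible because the groups were different rats and the labels pair none of them. The rat numbers used here count the libraries of each group in series order and link no rats between groups. Depth limits the miRNAs with few reads: a level resting on under 10 reads, such as miR-122-5p in ZDF rat 2, moves by counting alone.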
